A study of Mus musculus with 24 samples.

Results

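Dendritic cell genes were followed in mouse thymus, 10 of the 27670 genes named on the array: Clec9a, Xcr1, Batf3, Irf8, Cd209a, Itgax, Zbtb46, Flt3, Ccl22 and Siglech. All gene probes carrying one of these gene names were taken, which gave 11 probes of 8 genes. Zbtb46, printed on the array under its older name Btbd4, and Batf3, printed as 9130211I03Rik, were found through their accessions or older names and added 6 probes. The 17 probes, of 41174 gene probes on the array, were all among the 35185 probes kept for testing, and none was saturated. The tissue came from 15-week-old C57BL/6 mice of 4 genotypes, 6 mice each: wild type, p27 knockout (lacking Cdkn1b, the gene of the cell cycle inhibitor p27Kip1), stathmin knockout (lacking Stmn1, the gene of a microtubule-destabilising protein) and double knockout (lacking both genes). The labels name no promoter or Cre for either loss, and each genotype held 3 females and 3 males whose sex was not given mouse by mouse. Each array read the whole thymus of 1 mouse in Cy5 against 1 common pool of fibroblast RNA in Cy3, so every value is a log2 ratio of thymus over fibroblasts and can be compared between genotypes but not between probes. In whole tissue, fewer cells of a type and less RNA per cell cannot be told apart.

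Dendritic cells take up antigen and show it to T cells. In the thymus they present self antigens to developing thymocytes, which removes self-reactive clones and favours regulatory T cells. Conventional dendritic cells of type 1 carry Xcr1, the receptor of the chemokine Xcl1, and Clec9a, a receptor for actin filaments exposed on dead cells, and in mice they need the transcription factors Irf8 and Batf3. Conventional cells of type 2 carry Cd209a, a C-type lectin, in mice. Itgax (the integrin CD11c) and the transcription factor Zbtb46 mark conventional cells more broadly, Flt3 is the cytokine receptor on which dendritic cell development depends, and Ccl22 is a chemokine made by mature conventional cells. Siglech is a surface lectin of mouse plasmacytoid cells, the interferon-producing lineage.

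The sequence before the start of 5 of the genes is shown because they stand for the type 1 lineage (Clec9a, Xcr1), for conventional cells in general (Itgax, Zbtb46) and for plasmacytoid cells (Siglech), and because each holds a match to a motif that was searched. Each is the 250 bases before the annotated start, 5′ to 3′ on the gene's own strand, from RefSeq (GRCm38.p6). Clec9a lies at chr6:129408612-129408861 on the plus strand, Xcr1 at chr9:123862030-123862279 on the minus strand, Itgax at chr7:128129300-128129549 on the plus strand, Zbtb46 at chr2:181424389-181424638 on the minus strand and Siglech at chr7:55767934-55768183 on the plus strand. Capitals mark motif matches on either strand.
Clec9a: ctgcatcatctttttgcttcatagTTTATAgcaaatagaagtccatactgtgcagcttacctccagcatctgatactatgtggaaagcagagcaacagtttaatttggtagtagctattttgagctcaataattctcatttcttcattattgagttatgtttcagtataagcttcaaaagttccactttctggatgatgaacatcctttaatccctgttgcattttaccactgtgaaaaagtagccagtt
Xcr1: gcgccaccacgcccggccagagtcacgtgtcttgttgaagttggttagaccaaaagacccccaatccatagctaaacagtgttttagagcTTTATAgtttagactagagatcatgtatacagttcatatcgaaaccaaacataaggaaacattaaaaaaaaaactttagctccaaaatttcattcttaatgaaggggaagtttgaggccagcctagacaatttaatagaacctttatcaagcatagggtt
Itgax: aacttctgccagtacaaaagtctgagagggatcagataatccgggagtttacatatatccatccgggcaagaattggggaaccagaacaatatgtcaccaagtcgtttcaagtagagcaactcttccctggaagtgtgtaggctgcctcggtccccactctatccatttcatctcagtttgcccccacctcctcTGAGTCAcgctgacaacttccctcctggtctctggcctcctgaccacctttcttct
Zbtb46: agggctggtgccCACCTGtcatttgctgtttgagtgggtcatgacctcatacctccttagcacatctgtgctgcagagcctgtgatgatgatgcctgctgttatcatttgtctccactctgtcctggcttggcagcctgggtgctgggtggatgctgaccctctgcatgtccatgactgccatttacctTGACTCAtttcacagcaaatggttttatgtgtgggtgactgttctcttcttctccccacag
Siglech: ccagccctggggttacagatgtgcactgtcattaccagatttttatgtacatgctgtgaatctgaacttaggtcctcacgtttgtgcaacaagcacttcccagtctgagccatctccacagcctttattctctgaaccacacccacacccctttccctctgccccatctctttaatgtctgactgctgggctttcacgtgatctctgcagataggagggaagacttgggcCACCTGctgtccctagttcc

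Of 11 promoter entries for the 10 genes (Irf8 has 2), 2 held the AP-1 letters TGANTCA, the kind of site BATF factors bind with JUN partners, against 6.75% of 32851 promoters of the same length. These were Itgax at position -56 and Zbtb46 at position -61 from the start. The E-box letters CAGGTG were found in 3 of 11, Zbtb46, Siglech and 1 of the Irf8 entries, against 17.2% of all promoters. In Siglech they began at position -20. The letters TATAAA were found in 4 of 11 against 12.4%, among them Clec9a at position -226 and Xcr1 at position -160. The ETS-IRF composite (GGAA and GAAA 2 bases apart, in 2.3% of all promoters), the IRF repeat (GAAA and GAAA 2 bases apart, 2.98%), which can overlap it, and the E-box CAGCTG (13%) were found in 0 of 11. Each motif was searched on both strands, and a match is a run of letters in this window and no evidence of binding.

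The deleted genes matched the labels: the log2 ratio of Stmn1 probe A_52_P319161 averaged -2.95 ± 0.75 (SD, n = 6) and -3.19 ± 0.36 where Stmn1 was deleted (stathmin, double) and 2.45 ± 0.87 and 3.1 ± 0.28 where it was not (p27, wild type), and that of Cdkn1b probe A_51_P146126 averaged 0.30 ± 0.57 (n = 6) and -0.50 ± 0.88 (n = 5) where Cdkn1b was deleted (p27, double) and 1.80 ± 0.35 (n = 5) and 1.64 ± 0.40 (n = 6) where it was not. Other probes of these genes separated the genotypes less. Stmn1 A_51_P495641 averaged 2.01 (stathmin) and 1.88 (double), against 2.81 ± 1.78 (p27) and 3.54 (wild type). Cdkn1b A_51_P169173 averaged -0.78 (p27) and -0.65 (double), against 0.28 (wild type) and 0.49 (stathmin). Cdkn1b A_52_P673863 averaged -0.99 (p27) but -0.61 ± 0.45 (double), near -0.50 ± 0.28 in wild type and -0.54 in stathmin knockouts. The p27 knockout arrays were dim. The 99th percentile of Cy5, in kilo-units of intensity, spanned 19.4 to 171 for p27 arrays, 56.3 to 286 for wild type arrays, 131 to 340 for stathmin arrays and 200.2 to 320.0 for double knockout arrays. The 2 dimmest of all 24 were p27 replicates 6 and 5, whose mean correlation across probes with the rest was 0.21 and 0.56, where the remaining 22 ranged between 0.77 and 0.86. A slide (6 in all) carried 1 array per genotype, and since each genotype kept its place on the slide, place and genotype cannot be told apart.

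**Figure D1:**
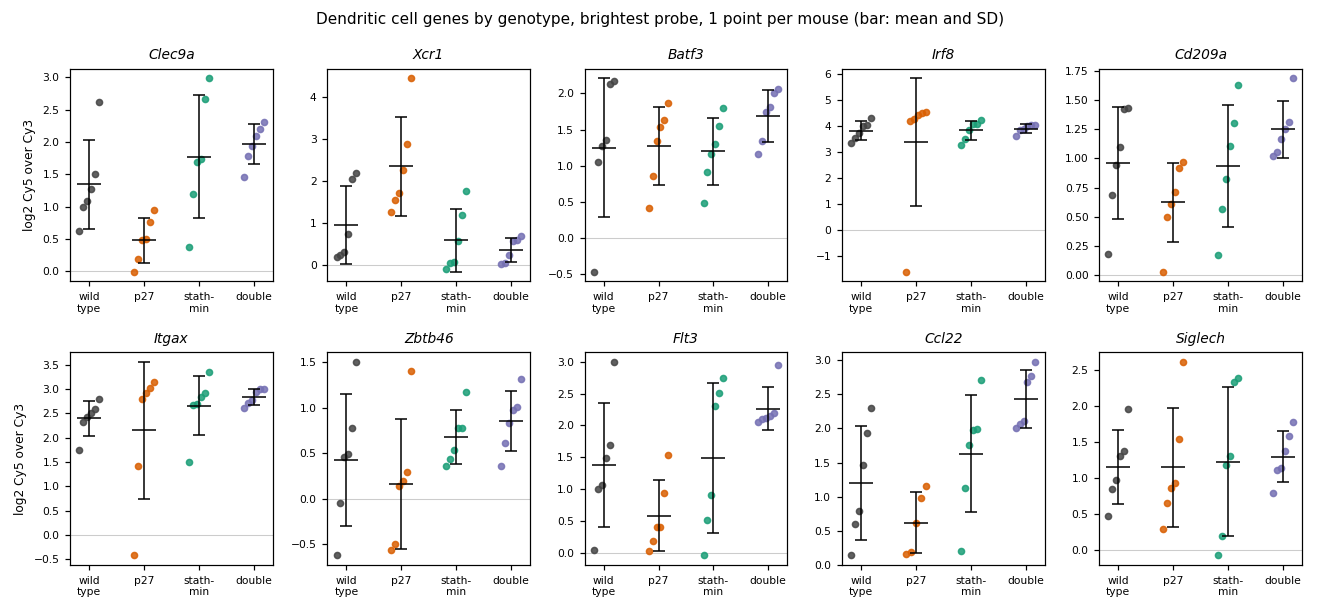
Log2 Cy5 over Cy3 (vertical axes) of the brightest probe of each of the 10 genes in the 4 genotypes; each point is 1 mouse and the bars are the mean and SD. The double knockout points cluster tightly for most genes, and for Clec9a, Flt3 and Ccl22 all of them lie above all p27 knockout points, while for Xcr1 (probe A_51_P345805) all of them lie below.

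In the double knockout thymus Clec9a of type 1 cells, Ccl22 of mature conventional cells and Flt3, a receptor of precursors and of dendritic cells at large, were higher than in the p27 knockout thymus, by 1.48, 1.82 and 1.68 on the log2 scale, or 2.8-fold, 3.53-fold and 3.21-fold. Siglech, the plasmacytoid gene, differed by 0.15 and did not pass. Xcr1 and Itgax were each read by 2 probes that disagreed in sign. In no other fitted comparison of genotypes did any of the 17 probes pass, and none of these calls held with the brightness of the array as a covariate in the fit. The p27 knockout was not compared directly with the stathmin knockout.

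For Clec9a the log2 ratio had a lowest, median and highest value of 0.62, 1.18 and 2.62 among wild type mice, -0.0038, 0.49 and 0.95 among p27 knockouts, 0.38, 1.71 and 2.98 among stathmin knockouts, and 1.45, 2.01 and 2.31 in the double knockout. The p27 knockout values were all below every double knockout value, while wild type and stathmin knockout values overlapped both. Groups were apart in that direction for 6.01% of all probes. The rise from p27 to double knockout was 1.48 ± 0.35 (SE, adjusted p = 0.00623), with the double knockout mouse higher on 6 of 6 slides, and 1.41 (adjusted p = 0.0283) without p27 knockout replicates 5 and 6. Against wild type, the p27 knockout differed by -0.87 ± 0.35 (adjusted p = 0.117), lower on 6 of 6 slides, and the double knockout by 0.62 ± 0.35, higher on 5 of 6 (unadjusted p = 0.0933). Clec9a lies on chromosome 6, which also carries Cdkn1b, 46 measured genes away, and it lies 7 measured genes from the natural killer receptor gene Klrd1.

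Xcr1 gave 2 opposite readings. On its brighter probe, A_51_P345805, lowest, median and highest values were 0.21, 0.53 and 2.20 among wild type mice, 1.26, 2.00 and 4.46 among p27 knockouts, -0.09, 0.33 and 1.78 among stathmin knockouts, and 0.02, 0.41 and 0.69 in the double knockout. All p27 knockout mice stood above all double knockout mice, and the double knockout was lower (log2 difference -1.99 ± 0.46, SE, adjusted p = 0.00566), where 6.70% of all probes had groups apart in that direction. On the dimmer probe, A_52_P490159, the values were 0.58, 1.09 and 1.51 among wild type mice, 0.38, 0.90 and 1.78 among p27 knockouts, 0.51, 1.81 and 2.13 among stathmin knockouts, and 1.74, 2.34 and 2.92 in the double knockout. Here every double knockout mouse stood above every wild type mouse, and 1 p27 knockout mouse overlapped the double knockout range. The double knockout was higher than the p27 knockout by 1.42 ± 0.29 (adjusted p = 0.0038). Against wild type it was higher by 1.27 ± 0.29, on 6 of 6 slides, with an unadjusted p of 0.000169 that came to 0.135 after adjustment over all probes, and against the stathmin knockout by 0.75 ± 0.29 (unadjusted p = 0.015). Groups that did not overlap in that direction made up 0.642% of all probes in the comparison with wild type. Across the 24 arrays the 2 probes had a Spearman rho of -0.59 with each other, so the direction of Xcr1 is not settled here. Without p27 knockout replicates 5 and 6 both still passed in opposite directions, at -1.49 and 1.22 (adjusted p = 0.0292 and 0.0226).

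Batf3 and Irf8, the transcription factors of the type 1 lineage, did not pass in any of the comparisons fitted with genotype alone. Batf3 had lowest, median and highest values of -0.46, 1.31 and 2.16 among wild type mice, 0.42, 1.44 and 1.87 among p27 knockouts, 0.49, 1.23 and 1.80 among stathmin knockouts and 1.16, 1.78 and 2.06 in the double knockout, which overlap throughout. Its double against p27 knockout difference was 0.41, with a 95% interval from -0.30 to 1.13. Irf8, which plasmacytoid cells and B cells also express, stood at 3.33, 3.87 and 4.29 among wild type mice, 3.25, 3.95 and 4.22 among stathmin knockouts and 3.60, 3.94 and 4.06 in the double knockout on its brightest probe, A_52_P354823. In the p27 knockout 5 mice lay between 4.19 and 4.53 and replicate 6 at -1.62. The double against p27 knockout difference of Irf8 was 0.51 with all mice and -0.46 without p27 knockout replicates 5 and 6, and neither passed (adjusted p = 0.578 and 0.105). Its other probe, A_51_P187253, gave 1.46 (adjusted p = 0.0515), which dropped to 0.25 without those mice. That probe passed in 8 of 36 other settings, among them the Cy5 channel alone (adjusted p = 0.0135), and Batf3 passed in the authors' deposited table (adjusted p = 0.00729).

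Cd209a, the type 2 gene, ran from 0.18 to 1.43 among wild type mice, 0.03 to 0.97 among p27 knockouts, 0.17 to 1.63 among stathmin knockouts and 1.02 to 1.69 in the double knockout. The p27 and double knockout ranges did not overlap, as for 6.01% of all probes in that direction. The difference of 0.63 ± 0.24 (SE) had an adjusted p of 0.0532, just outside the threshold of 0.05, and passed in 10 of 37 other settings. Without p27 knockout replicates 5 and 6 it was 0.45 (adjusted p = 0.208).

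Among the broader markers, Itgax also gave 2 readings. Its bright probe A_51_P303424 averaged 2.40 ± 0.36 (SD, n = 6) among wild type mice, 2.15 ± 1.41 among p27 knockouts, 2.66 ± 0.62 among stathmin knockouts and 2.85 ± 0.16 in the double knockout, and the double against p27 knockout difference of 0.70 did not pass (adjusted p = 0.22). The p27 knockout mean was held down by replicate 6 at -0.42 and replicate 3 at 1.42, while the other 4 mice lay between 2.80 and 3.16. Its dim probe A_52_P424887 averaged 0.22 ± 0.54, 1.13 ± 0.87, -0.08 ± 0.35 and -0.12 ± 0.23 in the same order, and fell by 1.25 from p27 to double knockout (adjusted p = 0.00782). The 5 Zbtb46 probes were split in sign as well, though neither of the falling probes passed. Probes A_52_P214042 and A_52_P183287 were higher in the double than in the p27 knockout, by 0.78 ± 0.25 and 0.65 ± 0.24 (SE, adjusted p = 0.0267 and 0.0452), and without p27 knockout replicates 5 and 6 neither passed (adjusted p = 0.139 and 0.0887). The brightest probe A_51_P381178 differed by 0.69 ± 0.31 (adjusted p = 0.0929), A_52_P241508 by -0.70 ± 0.29 (adjusted p = 0.0668) and A_52_P652885 by -0.27 ± 0.15. The last was not well above background on any double knockout array. Its difference there is only a bound (adjusted p = 0.166). Without p27 knockout replicates 5 and 6, A_52_P241508 differed by -0.08 (adjusted p = 0.686). A_51_P381178 then differed by 0.82 (adjusted p = 0.0591).

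Flt3 and Ccl22 separated the double from the p27 knockout. Flt3 had lowest, median and highest values of 0.05, 1.28 and 3.00 among wild type mice, 0.02, 0.41 and 1.53 among p27 knockouts, -0.04, 1.60 and 2.74 among stathmin knockouts and 2.06, 2.14 and 2.95 in the double knockout. Every double knockout mouse stood above every p27 knockout mouse, as for 6.01% of all probes, and the difference was 1.68 ± 0.45 (adjusted p = 0.0108), or 1.60 without p27 knockout replicates 5 and 6 (adjusted p = 0.0438). Wild type and stathmin knockout mice spread over almost the whole scale, with an SD of 0.98 and 1.17 against 0.34 in the double knockout. Ccl22 had values of 0.14, 1.12 and 2.30 among wild type mice, 0.21, 1.87 and 2.71 among stathmin knockouts and 2.00, 2.40 and 2.98 in the double knockout. In the p27 knockout the 5 values were 0.16, 0.19, 0.61, 0.97 and 1.15, and replicate 3 was left out because the scanner software had marked its spot as an outlier. All 5 lay below every double knockout mouse (again 6.01% of all probes), and the difference was 1.82 ± 0.40 (adjusted p = 0.00452), or 1.52 without p27 knockout replicates 5 and 6 (adjusted p = 0.0347). Against wild type Ccl22 was higher by 1.23 ± 0.38 in the double knockout, on 6 of 6 slides (unadjusted p = 0.00344, adjusted p = 0.437). The signal was well above background on 4 of 6 p27 knockout arrays for Clec9a, 4 of 6 for Ccl22 and 3 of 6 for Cd209a, against 6 of 6 double knockout arrays for each. The Ccl22 count includes replicate 3, whose ratio was left out. The dim Zbtb46 probe A_52_P652885 went the other way, with 6 of 6 and 0 of 6. Over all gene probes the share well above background ran from 76.2% to 91.1% on p27 knockout arrays. On double knockout arrays it was lower, from 62.8% to 77.9%.

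Siglech did not separate the genotypes. Its lowest, median and highest values were 0.47, 1.14 and 1.97 among wild type mice, 0.30, 0.90 and 2.61 among p27 knockouts, -0.07, 1.25 and 2.39 among stathmin knockouts and 0.79, 1.26 and 1.78 in the double knockout. The means, from 1.15 to 1.30, followed the order p27 knockout, wild type, stathmin knockout, double knockout, and no neighbours in that order differed beyond their spread. With all mice, the 95% interval of the double against p27 knockout difference ran from -0.68 to 0.98 (adjusted p = 0.797). The interval of Clec9a in the same comparison, from 0.76 to 2.21, overlaps that of Siglech. The p27 knockout value of 2.61 was that of replicate 6. Without p27 knockout replicates 5 and 6 the difference was 0.39 (adjusted p = 0.498), and no interval is given for it. Against wild type, the interval of the double knockout ran from -0.69 to 0.97. Whether Siglech and Clec9a changed by different amounts was not tested.

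Over all 17 probes, 8 passed in the double against the p27 knockout, 6 higher and 2 lower. In the authors' deposited table, which follows spot brightness, 9 of 17 passed, 9 higher and 0 lower, where 18288 of all 35185 probes passed. The 8 are 47.1% of the probes, where 30.0% of all probes tested passed, 13.3% higher and 16.8% lower. The median of the 17 differences was 0.65 against -0.08 for all probes, and 13 lay above 0. At an unadjusted p under 0.05 the count was 12 of 17, against 43.4% of all probes. Without p27 knockout replicates 5 and 6, 6 of the 17 passed, 4 higher and 2 lower, where 15.0% of all probes passed, 6.04% higher and 8.95% lower. In the other comparisons 0 of 17 passed by limma, where 0.00568% of all probes passed in the p27 knockout against wild type, 0.00284% in the stathmin knockout against wild type, 0.0114% in the double knockout against wild type and 0.00568% in the double against the stathmin knockout. At an unadjusted p under 0.05 the counts among the 17 were 4, 0, 3 and 2 in that order, where 29.3%, 2.37%, 4.63% and 1.16% of all probes reached it. The median difference of the 17 probes was -0.25, 0.13, 0.42 and 0.18 in the same order, against 0.07, -0.01, -0.02 and -0.01 for all probes. The double knockout lay above wild type on 14 of the 17 probes. The interaction, which asks whether the double knockout departs from the sum of the 2 single losses, passed for 0 of 17 and for 0.00% of all probes by limma, with 7 of 17 and 18.4% of all probes at an unadjusted p under 0.05. The comparisons share groups and are not independent of each other.

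**Figure D2:**
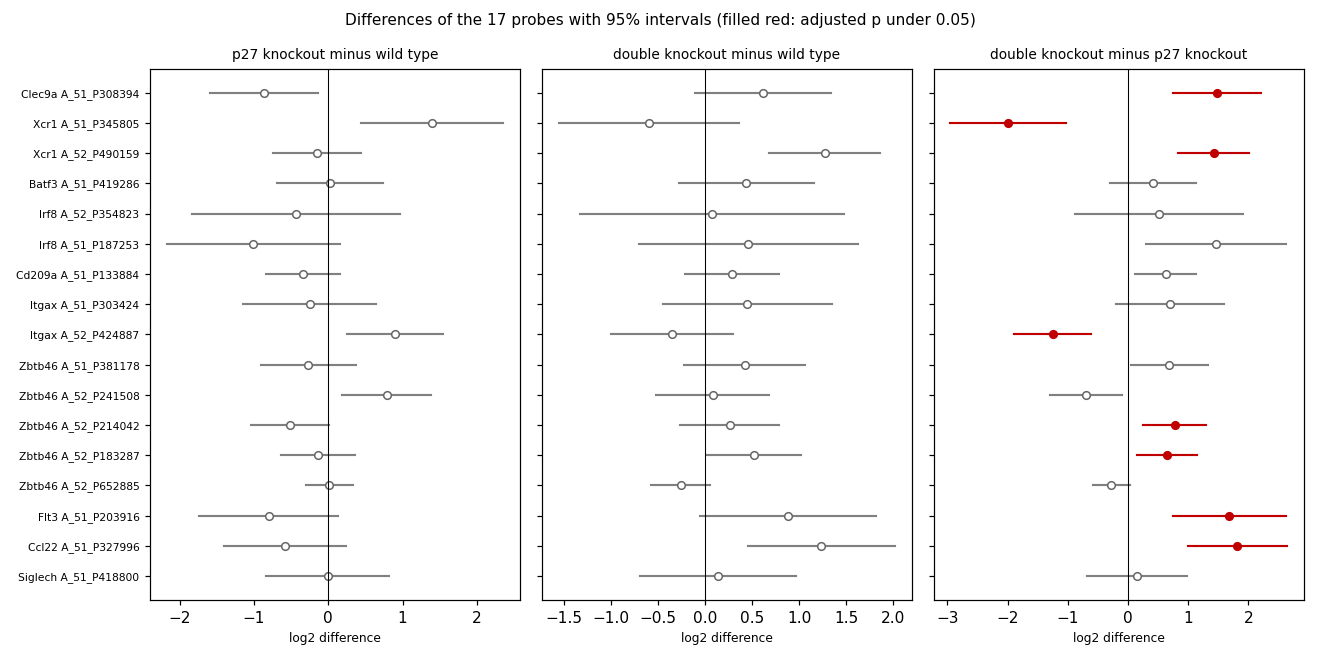
Log2 difference (horizontal axes) of each of the 17 probes in 3 comparisons, with 95% intervals from the limma fit; filled red points passed an adjusted p of 0.05. Passing points appear in the double against the p27 knockout alone of these panels, 6 to the right of 0 and 2 to the left, and the 2 Xcr1 probes and the 2 Itgax probes lie on opposite sides.

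The brightness of an array moved with these values. Over the 24 arrays the brighter Xcr1 probe had a Spearman rho of -0.93 with the 99th percentile of Cy5, and of -0.87 over the 18 arrays of the other 3 genotypes. The dim Itgax probe had -0.71 (-0.49 over the 18), and the probes that were higher in the double knockout had the other sign, with 0.66 for Clec9a, 0.71 for Flt3, 0.72 for Ccl22 (23 arrays), 0.57 for the dimmer Xcr1 probe, and 0.87 and 0.62 for Zbtb46 A_52_P214042 and A_52_P183287. Over the 18 arrays these were 0.42, 0.71, 0.58, 0.29, 0.78 and 0.59 in the same order. Siglech had 0.15. The arrays share genotype, slide and depth of signal, so these correlations describe the arrays and carry no test. Within wild type, the brighter Xcr1 probe was highest in replicates 4 and 6, at 2.04 and 2.20, whose arrays were the dimmest of that genotype. With brightness as a covariate in the fit, 0 of 17 probes passed in the double against the p27 knockout, and 1 of all probes did. The differences then were 1.02 for Clec9a, 0.92 for Flt3, 0.92 for Ccl22, 0.88 and -0.72 for the dimmer and brighter Xcr1 probes, -0.95 for the dim Itgax probe, and 0.03 and 0.39 for Zbtb46 A_52_P214042 and A_52_P183287, with adjusted p from 0.596 to 0.970 over these 8. Brightness and genotype overlap in this design, and the part that brightness plays in the calls was not tested further.

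**Figure D3:**
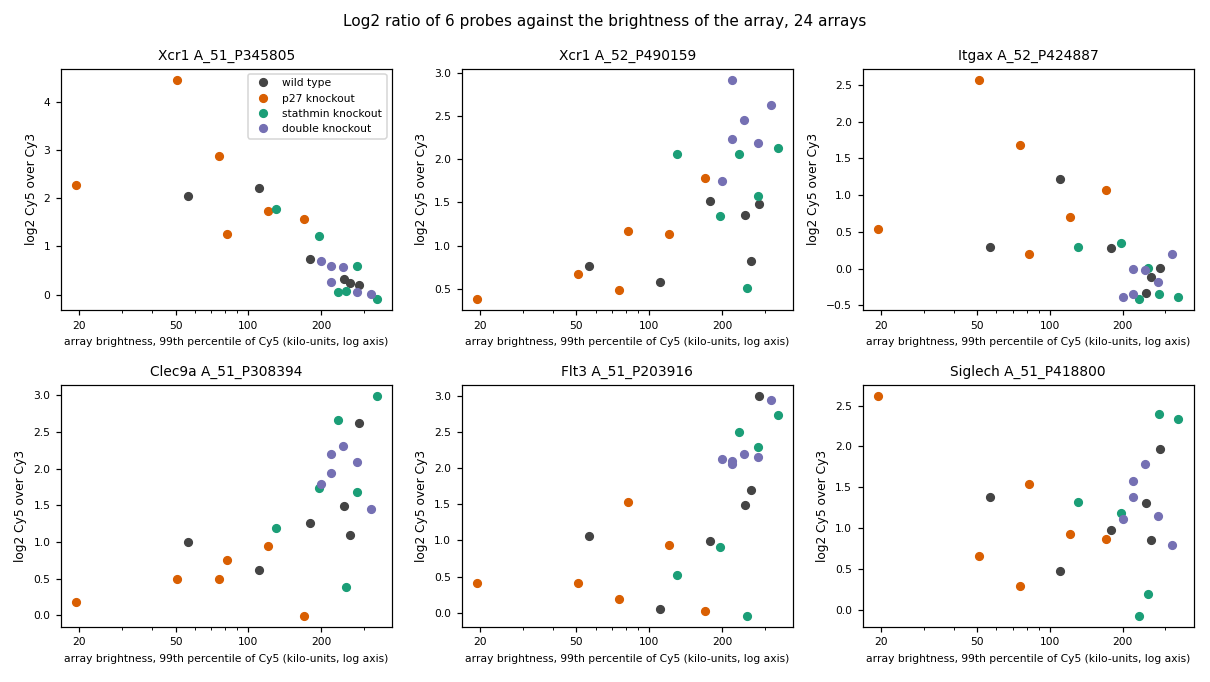
Log2 Cy5 over Cy3 (vertical axes) of 6 probes against the brightness of the array (horizontal log axis, 99th percentile of Cy5 in kilo-units), 1 point per array, coloured by genotype. The brighter Xcr1 probe falls with brightness (rho -0.93), Clec9a and Flt3 rise with it (0.66 and 0.71) and Siglech shows little relation (0.15).

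Genes known to work beside the 10 were read from lists. Of 9 measured genes that accompany type 1 cells, 3 were higher and 1 lower in the double than in the p27 knockout, where 13.3% of all probes were higher and 16.8% lower. Over all dendritic cell lists together 19 of 71 genes passed (26.8%), against 30.0% of all probes. Itgae, the integrin CD103, was higher by 2.14 (adjusted p = 0.0037), Tlr3, a receptor for double-stranded RNA, by 1.87 (adjusted p = 0.0037) and Naaa, a lysosomal amidase, by 0.54 (adjusted p = 0.0498, or 0.0689 with slide as a block, which leaves 2 higher), while Snx22 was lower (log2 difference -0.85, adjusted p = 0.0386). The median of the 9 was 0.86, against -0.08 for all probes, and without p27 knockout replicates 5 and 6 it was 0.35, with 3 higher and 0 lower. Itgae averaged 1.90 ± 0.82 (SD, n = 6) among wild type mice, 1.19 ± 1.01 among p27 knockouts, 2.44 ± 0.72 among stathmin knockouts and 3.32 ± 0.35 in the double knockout. Of 10 measured companions of type 2 cells 0 passed, with a median of 0.35, and the lectin genes Mgl2 and Clec4a2 had the lowest unadjusted p by limma against wild type, at differences of 0.47 and 0.27.

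Of 15 plasmacytoid companions, 2 were higher and 4 lower in the double than in the p27 knockout, where 13.3% and 16.8% of all probes were, with a median of 0.30. The highest rise among these was that of Irf7, the interferon regulatory factor, at 1.93 (adjusted p = 0.00392), followed by Upb1 at 1.58. Tlr9, a receptor for unmethylated DNA, was lower (log2 difference -3.15, adjusted p = 0.00386), as was Ptprs, a receptor phosphatase (-0.99, adjusted p = 0.0102). Tcf4, the transcription factor that plasmacytoid cells depend on, differed by -0.07 and Bst2 by -0.14, and neither passed. Without p27 knockout replicates 5 and 6 the median of the list was -0.0054, with 1 gene higher and 5 lower.

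Among ligands and receptors (9 measured), Xcl1, the ligand of Xcr1, was higher in the double knockout by 1.69 (adjusted p = 0.0105), while Csf1 (log2 difference -1.64, adjusted p = 0.00861) and Csf2ra (-1.49, adjusted p = 0.0198) were lower, as was Flt3l, the ligand of Flt3 (-1.07, adjusted p = 0.0352). Xcl1 averaged 2.40 ± 0.85 among wild type mice, 1.78 ± 1.13 among p27 knockouts, 2.83 ± 0.75 among stathmin knockouts and 3.48 ± 0.43 in the double knockout (SD, n = 6). Without p27 knockout replicates 5 and 6, 0 of these 9 genes passed in either direction. Of 12 development factors, Spi1 (PU.1, a myeloid transcription factor) and Cebpa were higher by 2.15 and 1.65 (adjusted p = 0.00518 and 0.0316) and Nfil3 was lower (-1.19, adjusted p = 0.0233). Of 12 genes of mature and migratory cells, the costimulatory gene Cd86 was higher by 1.94 (adjusted p = 0.00655). Of 8 class II presentation genes, the peptide-loading gene H2-DMa was higher by 1.91 (adjusted p = 0.0194), and the list median of 0.90 became -0.25 without p27 knockout replicates 5 and 6. Without them 0 of the class II genes, 1 development factor (higher) and 2 genes of mature cells (higher) passed. In each other fitted comparison, 0 genes of these lists passed by limma. The lowest unadjusted p among these dendritic cell lists in the double knockout against wild type was that of Itgae, at a difference of 1.42 (limma adjusted p = 0.368). It was followed by Naaa at 0.67 (adjusted p = 0.437) and Il12b, a cytokine subunit made by activated dendritic cells, at 1.28 (adjusted p = 0.562).

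**Figure D4:**
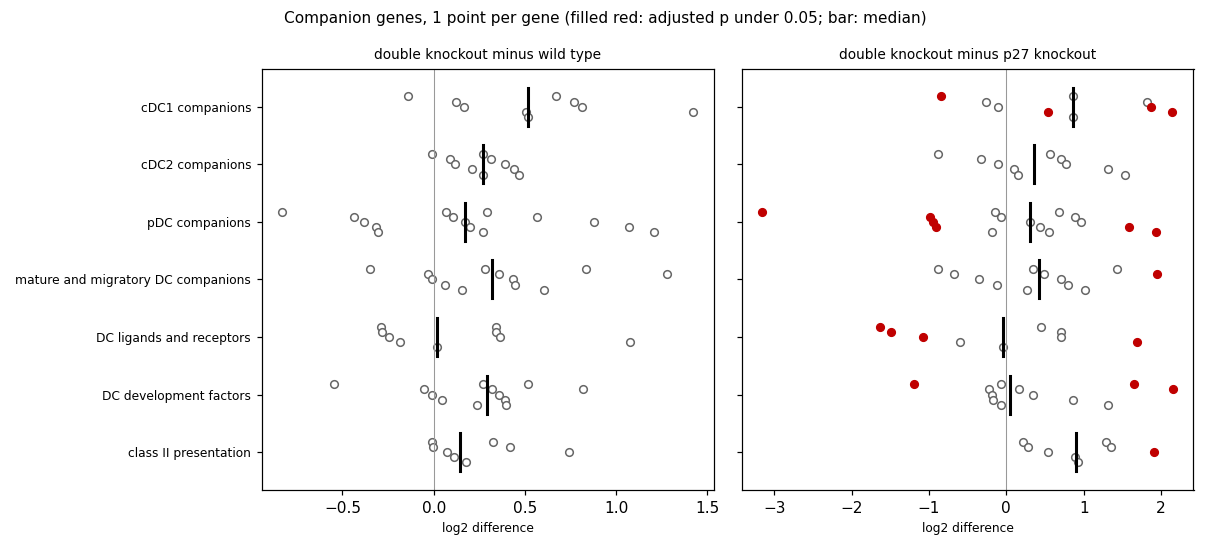
Log2 difference (horizontal axes) of the companion genes, 1 point per gene, in the double knockout against wild type (left) and against the p27 knockout (right); filled red points passed an adjusted p of 0.05 and bars are list medians. The left panel holds no filled point, and the type 1 list has medians of 0.51 and 0.86 in the 2 panels.

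Of 66 markers of other cell types 19 passed in the same comparison, 14 higher and 5 lower, which is 28.8% where 30.0% of all probes passed. Of the macrophage markers 3 of 12 were higher in the double than in the p27 knockout (C1qa, C1qb and Csf1r, by 1.70, 1.12 and 0.88), of the B cell markers 2 of 7 (Blk and Cd22, by 1.65 and 1.72), of the natural killer markers 2 of 5 (Klrb1c and Prf1, by 0.93 and 0.99), of the mature T cell markers 2 of 7 (Il2ra and Foxp3, by 1.33 and 0.92, the first with an adjusted p of 0.0568 with slide as a block), of the thymic epithelium markers 2 of 7 (Foxn1 and Epcam, by 1.36 and 1.97) and of the fat markers 3 of 6, with Fabp4 the largest of them at 2.61. Fibroblast markers were lower for 5 of 8, among them Col1a2 (log2 difference -1.61) and Col1a1 (-1.56). The mean level over the B cell list ran from 0.90 to 3.46 in the p27 knockout mice and from 2.47 to 3.92 in the double knockout mice, that of the macrophage list from -0.57 to 0.34 and from 0.16 to 1.04, that of the fat list from -0.32 to 5.05 and from 3.87 to 5.21, and that of the fibroblast list from -2.82 to -0.61 and from -3.32 to -2.48. Double-positive thymocyte markers passed for 0 of 9 (Rag2 and Cd1d1 came first against wild type, at 0.32 and -0.24), and their mean level ran from 1.14 to 6.45 in the p27 knockout and from 5.35 to 5.72 in the double knockout. Lymph node stroma and follicle markers passed for 0 of 5, with Ltf (0.96) and Fcer2a (0.65) first against wild type. Without p27 knockout replicates 5 and 6 the markers that passed were 1 macrophage and 1 thymic epithelium gene higher, 1 mature T cell gene lower and 6 of the 9 double-positive thymocyte genes lower, and 0 of the B cell, natural killer, fat and fibroblast lists. The part of these cell types in the dendritic cell values was not tested.

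The genes whose pattern over the 24 arrays was most like that of Siglech were 5330427O13Rik (Spearman rho 0.75), Fbxl12os (0.71), Gypc (0.70), Fam13a (0.70) and Bank1 (0.70). For the brighter Xcr1 probe they were the transcript ENSMUST00000080911 (0.98), Vmn1r46, Slc4a9, 5830409B07Rik and NAP115147-1 (each 0.97). Among the 10 genes themselves, Clec9a followed Ccl22 (0.87, 23 arrays) and Flt3 (0.85) most closely, Flt3 followed Ccl22 by 0.83, and Clec9a had a rho of -0.69 with the brighter and 0.72 with the dimmer Xcr1 probe. Siglech had a rho of 0.37 with Clec9a. The arrays behind these values share genotype, slide and brightness.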

How the data were processed

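The authors deposited 24 scanner files with the intensity of each spot and its background in Cy5 and Cy3, from Agilent Feature Extraction 9.1.3.1 without background subtraction, per the file headers. Log10 ratios deposited by the authors in the same files had been detrended and dye-normalized, per the file headers. The authors also deposited log2 values for the arrays in 1 series-wide file. Its making is not described in these sources. It followed spot brightness (r of at least 0.9795 on each array) and not the ratio (at most 0.067), so it served as an alternative. The thymus was labelled with Cy5 and the pool of fibroblast RNA of all genotypes with Cy3 on every array, per the labels, with no dye swap.

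Here limma 3.58.1 under R 4.3.3 (the data.table package, version 1.17.8) turned the intensities into log2 ratios: normexp background correction with offset 50, loess within each array with control spots at weight 0, scanner outliers left out, and spots of a probe averaged. Of 45018 spots, 41174 were gene probes, and the 35185 with Cy5 well above background on at least 6 of 24 arrays were kept. On an array, 62.8% to 91.1% of gene probes had Cy5 well above background, and the number of arrays limits the precision. The accessions of 22951 probes matched RefSeq names (GRCm38.p6), and 3109 more matched a unique older symbol. limma's moderated test ran on all 24 arrays with a term for genotype alone, and p was adjusted by Benjamini-Hochberg over the kept probes (threshold 0.05). All adjusted p values are limma's. Slides and replicate numbers are given as alternatives. Replicate numbers did not pair the arrays: same-numbered arrays had a median correlation of 0.038 over 36 pairs. Arrays of the same slide had 0.146, against -0.025 for other pairs, and the main fit has no term for slide. With slide as a block, 8 of the 17 probes and 11742 of all probes passed in the double against the p27 knockout. The fit was tested on simulated data with independent noise and 1 spread per probe for all genotypes. Real p27 knockout values can spread more, as for Irf8 A_52_P354823 (SD 2.46 against 0.17 in the double knockout). The simulation therefore does not bear on comparisons with the p27 knockout.

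All 10 genes are named by all their probes. The brightest probe stands for a gene mouse by mouse, and the dimmer Xcr1 probe is given in full as well, a choice made after its values were seen. Companion genes were named where they passed, at most 3 per list and comparison by lowest p, or the 2 of lowest unadjusted p against wild type where none passed; Naaa, Upb1, Flt3l, Tcf4, Bst2 and, against wild type, Itgae and Il12b were named after their values were seen. The 10 genes and the lists were chosen with earlier results of these data known. Alternatives covered background correction, normalization, the Cy5 channel alone, the deposited table, filters, gene-level probes, slide and replicate blocks, array weights, brightness, the samples in the fit and left-out arrays.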

Additional observations from a re-analysis of the deposited data

Results flagged for a closer look

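Of 68 groups of values (17 probes in 4 genotypes) 3 held a sample whose gap to its nearest neighbour exceeded Dixon's 95% limit. The groups share arrays and genes, so their number sets no count to be had by chance. Irf8 probe A_52_P354823 stood at -1.62 in p27 knockout replicate 6, where the nearest mouse stood at 4.19. The array of that replicate had a mean correlation of 0.21 with the other arrays. Itgax probe A_51_P303424 stood at 1.51 in stathmin knockout replicate 1, where the nearest stood at 2.67. Flt3 stood at 2.95 in double knockout replicate 1, where the nearest stood at 2.19. No difference between comparisons passed the interaction test.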

How the results depend on the processing

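The count of dendritic cell probes that passed in the double against the p27 knockout was 8 of 17 in the main fit. It was 3 of 7 when probes had to be well above background on all 24 arrays, where 6021 of all probes so filtered passed. At the gene level with the brightest probe it was 4 of 10, where 6999 of 23889 genes passed. With array brightness as a covariate it was 0, where 1 of all probes passed. The first 2 of these settings test fewer probes, and how many of all probes the first tested is not given here. The cause of the drop to 0 was not tested further. The authors' deposited table gave 9 higher and 0 lower there, where 18288 of all probes passed. In the p27 knockout against wild type (0), the authors' deposited table gave 5, all lower, where 9266 of all probes passed. Array weights gave 2 there, both higher, where 3927 of all probes passed. In the double knockout against wild type (0), array weights gave 1, the dimmer Xcr1 probe (1.18, adjusted p = 0.00855). Of all probes 388 passed there. Leaving out 1 mouse at a time gave 6 to 10 in the double against the p27 knockout, with 6 without p27 knockout replicate 5, and 0 to 2 in the p27 knockout against wild type, with 2 without wild type replicate 6, p27 knockout replicate 1 or p27 knockout replicate 4 and 1 without p27 knockout replicate 2. It gave 0 to 0 in the other 3 comparisons and the interaction. In the double against the p27 knockout these fits passed 8074 to 12101 of all probes. In the p27 knockout against wild type they passed 0 to 4111. With the replicate block the count was 9 in the double against the p27 knockout, where 10450 of all probes passed, and 0 in each of the others. Of 24 arrays, 6 correlated best with an array of their own number, and the numbers are not taken to pair the mice. Over all probes, the double against the p27 knockout passed 10572, 5275 without p27 knockout replicates 5 and 6, 5808 with only the groups compared, 6021 and 6999 under the first 2 settings above, and 1 with brightness as a covariate. Of the 8 calls, Zbtb46 A_52_P183287 was lost in 20 of 36 settings and A_52_P214042 in 5 of 36; Clec9a, Flt3, Ccl22 and the dimmer Xcr1 probe were lost under the brightness covariate alone, and the 2 falling probes there and in the deposited table. Calls were also gained in that comparison: Cd209a passed in 10 of 37 settings, Irf8 A_51_P187253 in 8 of 36, Zbtb46 A_51_P381178 in 3 of 38 and A_52_P241508 in 3 of 37, and Itgax A_51_P303424, Irf8 A_52_P354823 and Batf3 in the deposited table alone. The replicate block gave Irf8 A_51_P187253 and Cd209a adjusted p of 0.0482 and 0.0485 and Zbtb46 A_52_P183287 one of 0.0506. No call changed direction; the sign of values that passed under neither setting was not counted. Dim signal limits Clec9a, Cd209a, Ccl22 and 3 Zbtb46 probes, which were well above background on 12 to 22 of 24 arrays. Siglech was well above background on 23 of 24 arrays but about as dim. Its mean log2 Cy5 was 8.92, against 8.82 for Clec9a and 9.06 for Ccl22.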
